A study of Mus musculus with 48 samples.

Results

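Orexin (Hcrt), melanin-concentrating hormone (Pmch), galanin (Gal), thyrotropin-releasing hormone (Trh), the histamine-synthesising enzyme (Hdc) and the receptors Hcrtr1, Hcrtr2, Mchr1 and Galr1 were followed in the frontal cortex and hypothalamus of sleep-deprived Per3 knock-in (KI) and wild-type (WT) mice. The members were chosen by name, with no measured value in the rule, but with earlier results of these data known. Every probe whose RefSeq accession belonged to 1 of the 9 genes was taken. That gave 10 of the 41174 probes on the array, and 9 of its 18883 named genes. Hcrtr2 was read by 2 probes, A_51_P380069 and A_52_P469290, and every other member by 1.

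Total RNA from 24 adult C57BL/6 mice was measured on 48 arrays, 1 for each tissue of each mouse. Per3 5/5 mice (n = 8) and Per3 4/4 mice (n = 8) were homozygous KI animals in which a mouse Per3 exon was exchanged for its human counterpart, coding for 5 or 4 copies of the primate-specific repeat. WT mice (n = 8) were homozygous for the mouse exon. Breeding a conditional Per3 stock to a general PGK-Cre deleter had given rise to both the KI and the WT lines, and Cre had been bred out of the animals measured. Mice of all 3 genotypes were kept awake for 12 h before their brains were collected, so no rested mouse enters any comparison and no value below is an effect of sleep loss. Each tissue sample was a dissected block holding many cell types, in which fewer cells of a type and less RNA per cell cannot be told apart. The arrays compared therefore answered 1 question, namely whether the genotypes differed after equal time awake.

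Orexin neurons of the lateral hypothalamus and histamine neurons of the tuberomammillary nucleus promote wakefulness, whereas neurons that make melanin-concentrating hormone lie beside the orexin cells and are most active in sleep. Galanin marks sleep-promoting cells of the preoptic area among other hypothalamic groups, and Trh is made by several hypothalamic groups, of which the paraventricular one drives the thyroid axis. The peptides act on G-protein-coupled receptors that are also found on cortical cells, while the peptide-making cell bodies are largely hypothalamic.

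Levels are given as the log2 signal minus the log2 75th percentile of the array, so that 0 is the 75th percentile and a step of 1 is a 2-fold step. The 75th percentile ran from 307 to 1884 intensity units among the 48 arrays, and in hypothalamus from 1206 to 1884 in WT, 917 to 1217 in Per3 5/5 and 307 to 1575 in Per3 4/4. No spot was saturated, and between 29588 and 34969 spots of an array were well above background. Arrays were scanned on 3 days. The first day covered the KI genotypes alone, with 4 mice of each, the second covered 5 WT with 3 Per3 4/4 mice, and the third covered 4 Per3 5/5 and 3 WT mice with 1 Per3 4/4 mouse. The summed level of 10 hypothalamic markers had genotype medians of 181 to 188 times the 75th percentile in hypothalamus arrays, and was at most 5.03 in cortex arrays. Pituitary markers were high in 2 hypothalamus arrays, with a summed level of 745 in WT replicate 8 and 43.8 in Per3 5/5 replicate 8 against at most 4.59 in every Per3 4/4 array. The hypothalamus array of Per3 5/5 replicate 7 had the lowest mean log2 level of the hypothalamic markers, -0.41.

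The 250 bases before the transcription start are shown for the pair of genes with the largest tissue difference, a choice made after their values were seen. They come from RefSeq on build GRCm38.p6, where 8 of the 9 members had an entry, with 10 starts in all (Galr1 had none). Hcrt lies on the minus strand, at chr11:100762932-100763181, and Pmch on the plus strand, at chr10:88090822-88091071. Capitals mark the letters TATAAA, 33 bases before the start of Hcrt and 27 bases before the start of Pmch.
Hcrt: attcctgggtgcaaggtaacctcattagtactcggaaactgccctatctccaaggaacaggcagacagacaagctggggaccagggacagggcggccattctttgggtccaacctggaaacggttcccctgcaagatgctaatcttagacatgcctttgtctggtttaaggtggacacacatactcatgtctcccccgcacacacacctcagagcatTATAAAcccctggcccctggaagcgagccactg
Pmch: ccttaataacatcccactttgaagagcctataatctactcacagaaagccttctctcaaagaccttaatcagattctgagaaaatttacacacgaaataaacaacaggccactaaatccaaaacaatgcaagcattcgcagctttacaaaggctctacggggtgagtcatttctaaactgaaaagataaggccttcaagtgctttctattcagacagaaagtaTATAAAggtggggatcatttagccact
No other member start had TATAAA in its 250 bases on either strand, and 12.4% of 32851 mouse promoters of that length did. These are matches of letters and not measured binding sites.

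In hypothalamus, Hcrt was 1.62-fold higher and Hcrtr1 1.47-fold higher in Per3 4/4 than in WT mice, and the other peptide genes and receptors did not pass the test there. Both calls were lost with scan day as a block. They made 2 of 10 member probes, which is near the 15.1% of all 30735 probes tested (8.24% higher and 6.81% lower). No member probe passed between Per3 5/5 and WT, where 18.8% of all probes did (10.3% higher and 8.55% lower), nor between the KI genotypes, where the percentage for all probes was 0. At an unadjusted p under 0.05, 2 of 10 member probes passed in Per3 5/5 against WT (35% of all probes) and 0 of 10 between the KI genotypes (16.2%). The methods' t-test likewise called 0 member probes in either comparison, beside 4051 and 0 of all 30735 probes. The study also called probes by a rank product analysis, which was not run here. Every pair of genotypes overlapped for each of the 10 probes. Of all probes, 0.026% had no overlap between the KI genotypes, and against WT the percentage was 2.66% for Per3 5/5 and 1.86% for Per3 4/4. The median log2 difference of the members was -0.05 for Per3 5/5 against WT and 0.02 for Per3 4/4 against WT, beside 0.03 and 0.02 for all probes. Both comparisons used the same 8 WT arrays.

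Hcrt encodes the precursor of both orexin peptides. Its log2 level in hypothalamus ran from 6.21 to 7.36 (median 6.88) in Per3 5/5, from 6.66 to 7.33 (median 7.11) in Per3 4/4 and from 5.87 to 7.11 (median 6.40) in WT mice. The Per3 4/4 arrays sat at the upper end, and 4 of 8 were above every WT array, but the ranges overlapped. Per3 4/4 exceeded WT by 0.70 ± 0.17 on the log2 scale (SE, n = 8 per genotype; 95% interval 0.35 to 1.05; limma, adjusted p = 0.0131). Per3 5/5 exceeded WT by 0.42 ± 0.17, which did not pass (adjusted p = 0.0779). The KI genotypes differed by -0.28 ± 0.17 (Per3 5/5 minus Per3 4/4, 95% interval -0.63 to 0.07, adjusted p = 0.397).

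The Hcrt difference between Per3 4/4 and WT kept its call in all 24 fits that left out 1 array, at 0.62 to 0.80. Scan day moved with genotype, and the call was lost with scan day as a block, at 0.61 ± 0.19 (limma, adjusted p = 0.0996), and on scan day 2 alone, at 0.56 (adjusted p = 0.554). It was also lost with slide as a fixed block, at 0.13 ± 0.37 (limma, adjusted p = 0.941), a fit that called 0 of all probes. Across 14 alternatives the adjusted p of Hcrt ran from 0.00941 to 0.941, with 11 calls. The Hcrt difference between Per3 5/5 and WT passed without Per3 5/5 replicate 7 (0.51, limma adjusted p = 0.0368) or without WT replicate 5 (0.52, adjusted p = 0.0277). Replicate 7 was singled out beforehand as low in hypothalamic markers and was the lowest Per3 5/5 array for Hcrt. The call gained without it is therefore a description and supports nothing. With the scan day block the Per3 5/5 difference from WT was 0.38 (limma, adjusted p = 0.28). Its adjusted p ran from 0.0725 to 0.998 over the 14 alternatives with no call.

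Markers of oligodendrocytes moved with the same comparison. Their summed level was 231 to 324 in Per3 4/4, 211 to 269 in Per3 5/5 and 173 to 255 in WT hypothalamus. In Per3 4/4, 6 of 6 markers passed as higher than in WT (median log2 difference 0.45), beside 8.24% of all probes. In Per3 5/5, 3 of 6 did (median 0.36), beside 10.3% of all probes. Sim1, a hypothalamic transcription factor among the markers, was lower than in WT by -1.52 in Per3 4/4 and -1.45 in Per3 5/5, within a list of which 1 and 2 of 9 tested passed (all lower) with medians of -0.02 and -0.0063, and 2 of 6 striatal markers were higher than in WT in each KI genotype. In Per3 5/5 hypothalamus 2 of 7 cortex markers were higher than in WT, Tbr1 by 1.12 and Cux2 by 0.57. There 1 of 5 choroid plexus markers and 1 of 5 pituitary markers were lower than in WT. Of all probes, 6.81% were lower than in WT in Per3 4/4 and 8.55% in Per3 5/5. The marker counts were not repeated with scan day as a block. The part of these cell and tissue markers in the differences of Hcrt and Hcrtr1 was not tested.

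**Figure D1:**
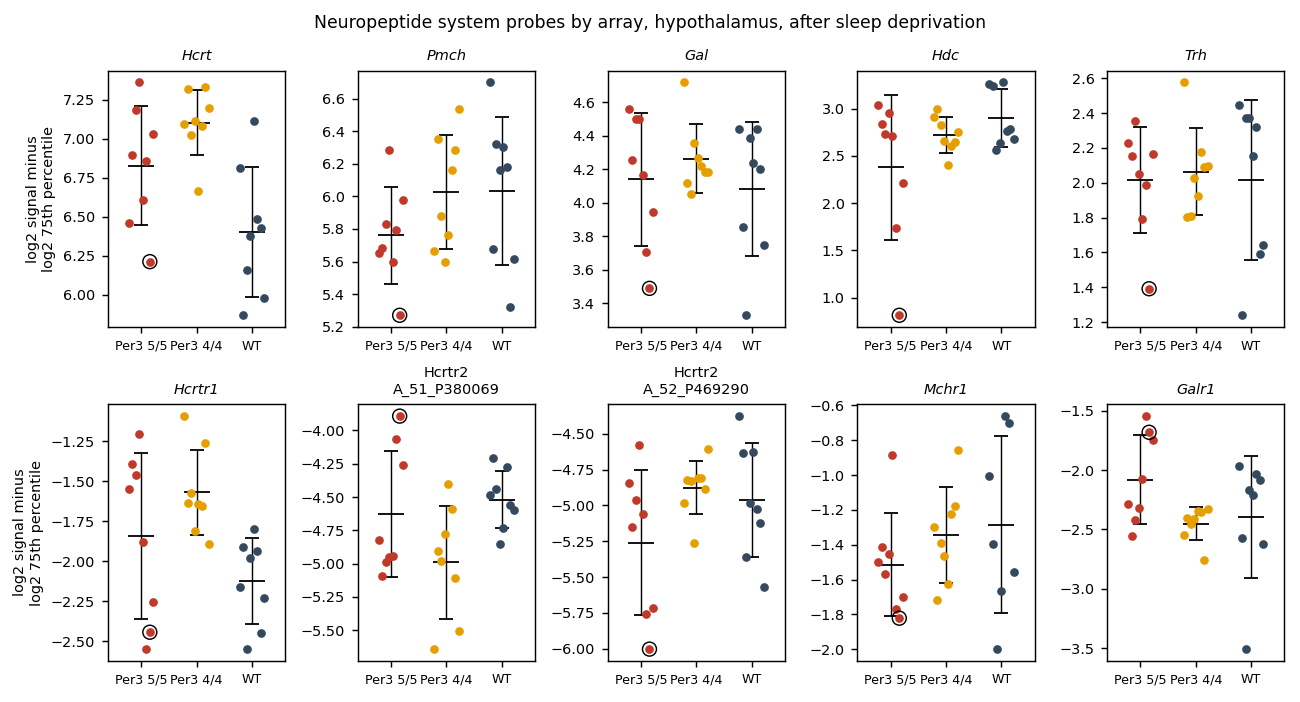
Level of the 10 member probes in hypothalamus (log2 signal relative to the 75th percentile of the array) by genotype, with 1 point per array and the mean ± SD of 8 arrays (7 for Mchr1 in WT). The circled point is Per3 5/5 replicate 7, the lowest array of its group for Hcrt (6.21), Pmch (5.27), Gal (3.49), Hdc (0.81) and Trh (1.39), and the genotypes overlap for every probe.

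Pmch encodes the precursor of melanin-concentrating hormone. Its log2 level in hypothalamus ran from 5.27 to 6.29 (median 5.74) in Per3 5/5, from 5.60 to 6.54 (median 6.02) in Per3 4/4 and from 5.32 to 6.70 (median 6.17) in WT mice, with all groups overlapping. Per3 4/4 minus WT was -0.01 ± 0.18, with a 95% interval of -0.38 to 0.37. Per3 5/5 minus WT was -0.28 ± 0.18, with an interval of -0.65 to 0.10. Neither difference passed.

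Gal, the precursor of galanin, ran from 3.49 to 4.56 (median 4.21) in Per3 5/5, from 4.05 to 4.72 (median 4.20) in Per3 4/4 and from 3.33 to 4.44 (median 4.22) in WT hypothalamus. The medians were nearly equal, and KI minus WT was 0.06 ± 0.17 in Per3 5/5 and 0.18 ± 0.17 in Per3 4/4. Trh, the precursor of thyrotropin-releasing hormone, ran from 1.39 to 2.35 (median 2.10), from 1.80 to 2.58 (median 2.06) and from 1.24 to 2.44 (median 2.24) in the same order. For Trh the Per3 4/4 difference from WT was 0.05 ± 0.17 (95% interval -0.30 to 0.39), and for Per3 5/5 the interval was -0.35 to 0.35. Neither gene separated any pair of genotypes.

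Hdc makes histamine from histidine. Its log2 level in hypothalamus ran from 0.81 to 3.04 (median 2.72) in Per3 5/5, from 2.40 to 3.0 (median 2.71) in Per3 4/4 and from 2.57 to 3.28 (median 2.78) in WT mice. The Per3 5/5 range was wide because of its lower end, with 3 of 8 arrays below every WT array. Per3 5/5 minus WT was -0.52 ± 0.23 (limma, adjusted p = 0.114), and -0.30 ± 0.17 (adjusted p = 0.213) without replicate 7. With the scan day block it was -0.71 ± 0.24 (adjusted p = 0.093), and on scan day 3 alone -0.87. None of the 14 alternatives called it, with adjusted p from 0.0785 to 0.95. The low Hdc values lay within 1 scan day: the 4 Per3 5/5 arrays of day 1 were at 2.74 to 3.04 and the 4 of day 3 at 0.81 to 2.71, whereas WT was at 2.57 to 3.28 on day 2 and at 2.68 to 2.79 on day 3.

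Among the receptors, Hcrtr1, which prefers orexin A, was the 1 that passed in hypothalamus. Its log2 level ran from -2.55 to -1.20 (median -1.71) in Per3 5/5, from -1.89 to -1.09 (median -1.64) in Per3 4/4 and from -2.55 to -1.80 (median -2.07) in WT mice. In Per3 4/4, 6 of 8 arrays were above every WT array, and the difference was 0.56 ± 0.18 (95% interval 0.19 to 0.93; limma, adjusted p = 0.0398). Per3 5/5 minus WT was 0.28 ± 0.18 (adjusted p = 0.262). The 4 Per3 5/5 arrays of scan day 1, at -1.55 to -1.20, did not overlap the 4 of scan day 3, at -2.55 to -1.88.

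The Hcrtr1 call was less stable than that of Hcrt. It was lost without Per3 4/4 replicate 1 (0.49, limma adjusted p = 0.0901), 2 (0.57, 0.0595), 3 (0.56, 0.0658) or 7 (0.51, 0.07), or without WT replicate 1 (0.55, 0.0656), 3 (0.50, 0.072), 7 (0.51, 0.0622) or 8 (0.54, 0.0607), and it held in the other 16 of 24 fits. With scan day as a block the difference was 0.34 ± 0.16 (adjusted p = 0.24), and on scan day 2 alone 0.56 (adjusted p = 0.55). With slide as a fixed block the difference was 0.10 ± 0.27 (limma, adjusted p = 0.938). It was called in 6 of 14 alternatives, with adjusted p from 0.0111 to 0.938.

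Hcrtr2, the receptor that binds both orexins, was read by probes that disagreed. A_51_P380069 ran from -5.09 to -3.89 (median -4.88) in Per3 5/5, from -5.64 to -4.40 (median -4.94) in Per3 4/4 and from -4.85 to -4.21 (median -4.53) in WT hypothalamus, and its Per3 4/4 minus WT difference was -0.47 ± 0.19 (limma, adjusted p = 0.0855). A_52_P469290 ran from -6.00 to -4.58 (median -5.11), from -5.26 to -4.61 (median -4.83) and from -5.57 to -4.38 (median -5.00) in the same order, with a Per3 4/4 minus WT difference of 0.09 ± 0.19. By the first probe 5 of 8 Per3 4/4 arrays were below every WT array, and by the second none was. The first passed without Per3 4/4 replicate 5 (-0.55, limma adjusted p = 0.0487) and when the 16 arrays of the pair alone were fitted (-0.47, adjusted p = 0.048). Its adjusted p ran from 0.048 to 0.797 over 14 alternatives. No direction for Hcrtr2 in hypothalamus was shared by its probes in this comparison.

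Mchr1, the receptor for melanin-concentrating hormone, ran from -1.82 to -0.89 (median -1.53) in Per3 5/5, from -1.72 to -0.85 (median -1.34) in Per3 4/4 and from -2.0 to -0.66 (median -1.40, n = 7) in WT hypothalamus. The spot of WT replicate 7 was marked as an outlier and is missing from these values. KI minus WT was -0.23 ± 0.18 in Per3 5/5 and -0.06 ± 0.18 in Per3 4/4, with overlapping groups. Galr1, a receptor for galanin, ran from -2.56 to -1.54 (median -2.18), from -2.75 to -2.33 (median -2.41) and from -3.51 to -1.96 (median -2.19) in Per3 5/5, Per3 4/4 and WT. In 6 of 8 Per3 5/5 arrays Galr1 was above every Per3 4/4 array, and Per3 5/5 minus Per3 4/4 was 0.37 ± 0.18 (95% interval -0.003 to 0.75; limma, adjusted p = 0.31). That difference and the one of A_52_P469290 for Hcrtr2, at -0.38 ± 0.19 (adjusted p = 0.309), were the member differences between the KI genotypes with the smallest p in hypothalamus. With scan day as a block they were 0.25 ± 0.18 and -0.22 ± 0.18. On scan day 1 alone, with 4 mice of each KI genotype, they were 0.06 ± 0.08 and 0.09 ± 0.15. The Galr1 values of Per3 5/5 lay at -2.56 to -2.29 on day 1 and at -2.08 to -1.54 on day 3.

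In cortex the levels of Hcrt, Pmch, Hdc and Trh were low, while Gal lay just under the 75th percentile, and 8 of the 10 member probes could be tested. Galr1 was not well above background on any cortex array, and A_52_P469290 of Hcrtr2 was on 1 Per3 5/5, 1 Per3 4/4 and 3 WT arrays. Hcrt was 1.56-fold higher in Per3 5/5 than in WT cortex, 1 of 8 probes beside 12.4% of all 29715 probes tested (8.44% higher and 3.91% lower). In Per3 4/4 against WT, A_51_P380069 of Hcrtr2 passed at a negative difference, 1 of 8 probes beside 22.5% of all probes (13.4% higher and 9.14% lower), but it entered the test through WT alone. Between the KI genotypes 0 of 8 passed (percentage of all probes 0), 2 of 8 at an unadjusted p under 0.05 (15.7% of all probes) and 0 by the methods' t-test (0 of all 29715 probes). All genotypes overlapped for each of the 8 probes, while 0.037%, 1.14% and 6.7% of all probes had no overlap in Per3 5/5 against Per3 4/4, Per3 5/5 against WT and Per3 4/4 against WT. The member medians were -0.02 and -0.06 for Per3 5/5 and Per3 4/4 against WT, beside 0.06 and 0.02 for all probes.

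Hcrt in cortex ran from -3.27 to -1.47 (median -2.84) in Per3 5/5, from -3.54 to -2.84 (median -3.22) in Per3 4/4 and from -3.81 to -3.08 (median -3.37) in WT mice, and was well above background on all 24 arrays. Per3 5/5 minus WT was 0.64 ± 0.18 (95% interval 0.26 to 1.02; limma, adjusted p = 0.0277), with 5 of 8 Per3 5/5 arrays above every WT array. The highest array, at -1.47, was again replicate 7, and without it the difference was 0.46 (adjusted p = 0.0212). The call was lost without Per3 5/5 replicate 4 (0.61, limma adjusted p = 0.0533), WT replicate 3 (0.58, 0.0614) or WT replicate 5 (0.63, 0.0504). With scan day as a block the difference was 0.61 ± 0.22 (adjusted p = 0.121), and on scan day 3 alone 0.60 (adjusted p = 0.465). Of 14 alternatives 7 called it, with adjusted p from 0.0045 to 0.565. The hypothalamic markers had a summed level of 1.03 to 5.03 in the Per3 5/5 cortex arrays and of 0.92 to 1.52 in the WT cortex arrays, and their part in this difference was not tested.

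Hcrtr2 in cortex was close to background. By A_51_P380069 it ran from -7.37 to -5.28 (median -6.26) in Per3 5/5, from -7.48 to -6.42 (median -6.98) in Per3 4/4 and from -7.06 to -5.71 (median -6.12) in WT mice. The probe was well above background on 4, 1 and 7 of 8 arrays in that order, so WT was the only genotype through which it passed the filter, and 7 Per3 4/4 values were not well above background. Per3 4/4 minus WT was -0.77 ± 0.25 (limma, adjusted p = 0.0339), a value set against signal mostly near background and not read as a lower level of Hcrtr2. The call was lost without Per3 4/4 replicate 1 (-0.73), 3 (-0.70), 4 (-0.69) or 6 (-0.73), or without WT replicate 1 (-0.71), 2 (-0.73), 6 (-0.74) or 8 (-0.70), at limma adjusted p of 0.0543 to 0.07. With the scan day block it was -0.49 (adjusted p = 0.222), on scan day 2 alone -0.51 (adjusted p = 0.334), and with normexp background correction it turned to 0.59 (adjusted p = 0.000664). Of 12 alternatives that gave a value 8 called it, with adjusted p from 0.000664 to 0.638, and the one in the opposite direction is among the 8.

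The other members did not pass in any cortex comparison. Pmch ran from -5.01 to -2.12 (median -3.88) in Per3 5/5, from -5.27 to -3.52 (median -4.42) in Per3 4/4 and from -4.26 to -3.58 (median -3.90) in WT cortex. Hdc had medians of -3.49, -3.53 and -3.77 and Trh of -4.53, -4.38 and -4.08 in the same order. These peptide and enzyme genes had a wider spread in the KI groups than in WT, with an SD of 0.94 for Pmch in Per3 5/5 against 0.22 in WT, and no test of spread was made. Cortex arrays had a 75th percentile of 727 to 1148 in Per3 5/5, 324 to 1102 in Per3 4/4 and 973 to 1463 in WT. Pmch in Per3 5/5 cortex lay at -5.01 to -3.90 on scan day 1 and at -3.87 to -2.12 on day 3. The part of array brightness and scan day in the spread was not tested. Gal was the peptide gene with the tightest cortex values in WT, from -0.79 to -0.62 (median -0.71), and its KI minus WT differences were -0.04 ± 0.11 and 0.01 ± 0.11 in Per3 5/5 and Per3 4/4. With scan day as a block they were 0.20 ± 0.10 and 0.21 ± 0.09, and neither passed. The Per3 4/4 arrays split by scan day, at -1.05 to -0.79 on day 1 and -0.41 to -0.29 on day 2. On day 2 alone Per3 4/4 minus WT was 0.36 ± 0.08 (limma, adjusted p = 0.0707).

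Hcrtr1 in cortex ran from -3.63 to -2.16 (median -2.69) in Per3 5/5, from -3.55 to -2.20 (median -2.62) in Per3 4/4 and from -3.65 to -2.61 (median -2.93) in WT mice. Per3 4/4 minus WT was 0.40 ± 0.20 (limma, adjusted p = 0.156), and it passed without Per3 4/4 replicate 5 (0.54, adjusted p = 0.0413). The adjusted p of Hcrtr1 there ran from 0.00438 to 0.934 over 14 alternatives, 1 of which, normexp background correction, called it. As in hypothalamus, the Per3 5/5 arrays split by scan day, with day 1 at -2.56 to -2.16 and day 3 at -3.63 to -2.82. Mchr1 in cortex had medians of -1.04, -1.05 and -0.87 in Per3 5/5, Per3 4/4 and WT, and its Per3 5/5 minus WT difference of -0.17 ± 0.09 did not pass (adjusted p = 0.186).

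**Figure D2:**
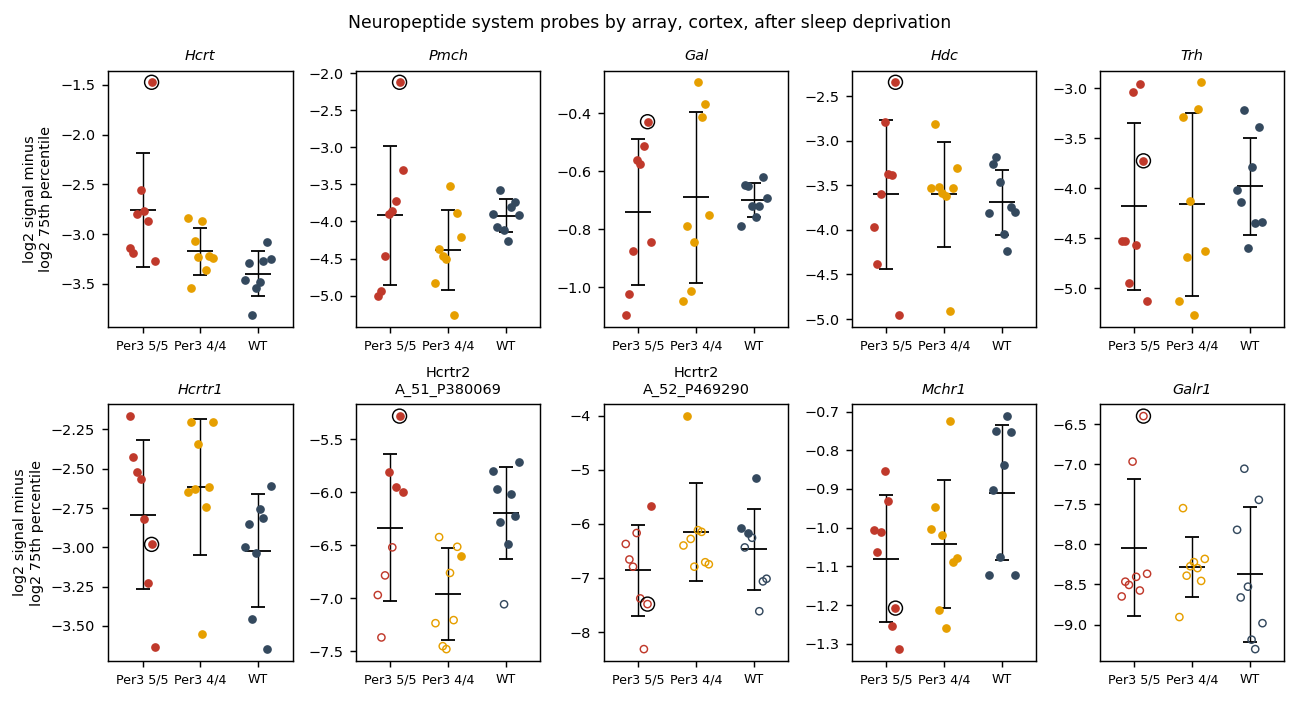
Level of the member probes in cortex (log2 signal relative to the 75th percentile of the array) by genotype, with 1 point per array and the mean ± SD of 8 arrays. Open points are arrays where the probe was not well above background, which is every array for Galr1, and the circled Per3 5/5 replicate 7 is the highest array of its group for Hcrt (-1.47), Pmch (-2.12), Gal (-0.43) and Hdc (-2.35).

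**Figure D3:**
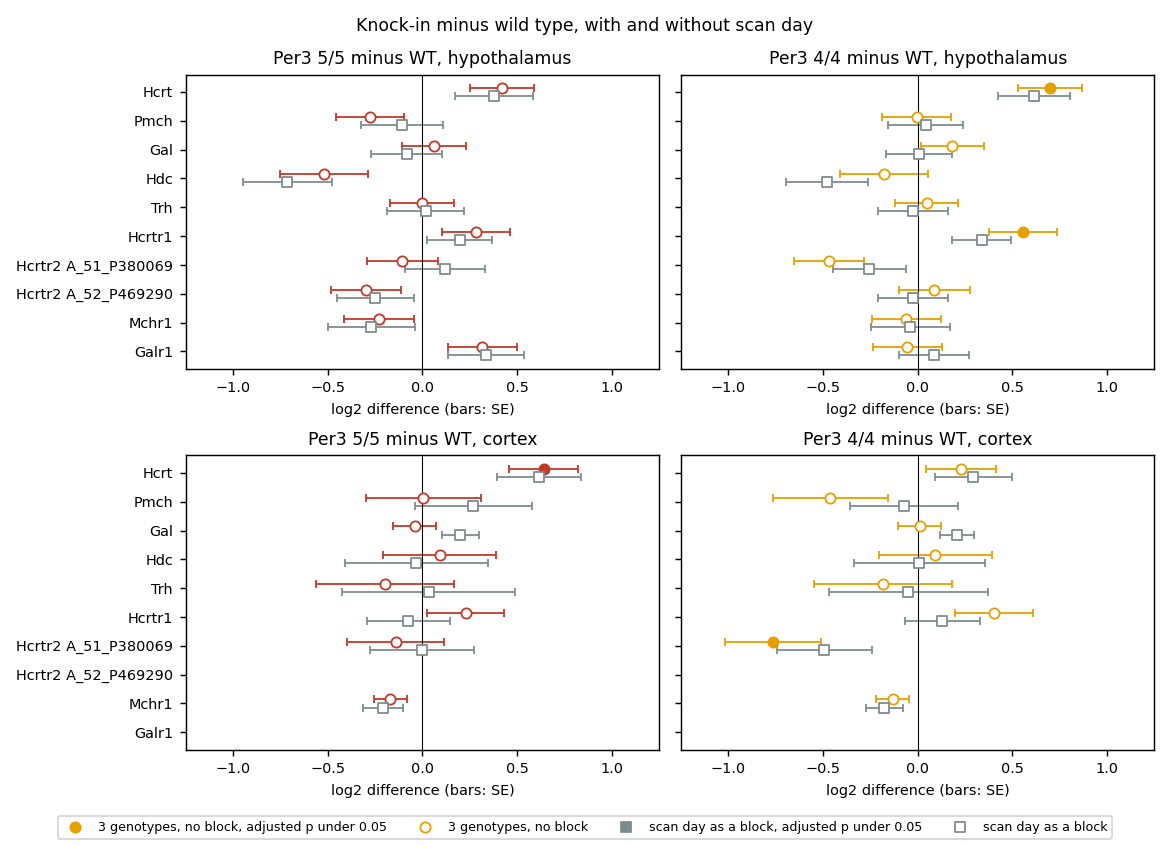
Log2 difference of each KI genotype from WT (± SE, n = 8 per genotype, 7 for Mchr1 in WT hypothalamus) for the member probes tested in each tissue. Filled points have an adjusted p under 0.05, namely Hcrt (0.70) and Hcrtr1 (0.56) in Per3 4/4 hypothalamus, Hcrt (0.64) in Per3 5/5 cortex and the Hcrtr2 probe (-0.77) in Per3 4/4 cortex, which was well above background on 1 of 8 Per3 4/4 arrays, and grey squares give the difference with scan day as a block.

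Between tissues the peptide genes and Hdc were far higher in hypothalamus, in each genotype and on every array. Hcrt was 768-fold higher in Per3 5/5, 1238-fold in Per3 4/4 and 893-fold in WT mice, with log2 differences of 9.59, 10.27 and 9.80 (SE 0.18 each, n = 8 per tissue). Pmch differed by 9.68, 10.41 and 9.96 (SE 0.26), which made it 819-, 1365- and 995-fold higher. Of the 10 member probes, 10, 9 and 10 passed the test in Per3 5/5, Per3 4/4 and WT, beside 50.1%, 51.1% and 51.9% of all probes. In each genotype 9 were higher in hypothalamus, beside 25.6%, 27.1% and 28.1% of all 31228 probes in Per3 5/5, Per3 4/4 and WT. The tissues did not overlap for 7, 8 and 8 of the 10 probes, where 20.6%, 26% and 28% of all probes did not. Galr1 and A_52_P469290 of Hcrtr2 passed the filter only through hypothalamus, so these counts are a description and support nothing.

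The other peptide and enzyme genes followed at smaller differences. Gal was higher in hypothalamus by 4.88, 4.95 and 4.78 (SE 0.14), Hdc by 5.98, 6.32 and 6.59 (SE 0.27) and Trh by 6.19, 6.22 and 6.0 (SE 0.29) in Per3 5/5, Per3 4/4 and WT. Each difference of these 5 genes passed the test under all 8 alternatives run for the tissues, but their sizes fell under normexp background correction. There Pmch differed by 8.54, 8.80 and 9.14, Hcrt by 8.99, 9.39 and 9.19, Hdc by 5.03, 5.15 and 5.79 and Trh by 4.98, 4.86 and 5.11 in Per3 5/5, Per3 4/4 and WT. Gal was thus the gene of the 5 with the smallest difference between the tissues, at 27.5- to 31.0-fold.

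The receptors divided. By the main scaling Galr1 was at least 19.4-, 15.8- and 22.1-fold higher in hypothalamus in Per3 5/5, Per3 4/4 and WT. For this bound the cortex level was set no lower than the lowest signal of any probe well above background on each array. Its measured mean log2 level in cortex was -8.04, -8.28 and -8.37, and its hypothalamus mean was -2.08, -2.45 and -2.40. The bound did not carry over to other processing. With normexp background correction the measured log2 differences were 2.11, 1.53 and 2.27, below the bounds of 4.28, 3.98 and 4.47. Hcrtr1 was higher in hypothalamus by 0.95, 1.05 and 0.90 (SE 0.20), with tissues that overlapped in Per3 5/5. Hcrtr2 was higher by 1.71, 1.97 and 1.67 (SE 0.23) by A_51_P380069 and by 1.60, 1.28 and 1.51 (SE 0.32) by A_52_P469290. In cortex the first was well above background on 4, 1 and 7 of 8 arrays and the other on 1, 1 and 3, so these differences are set largely against background. Under normexp background correction they became 0.34, 0.15 and 0.67 and 0.08, -0.03 and 0.40, of which only 0.67 in WT passed.

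Mchr1 was the member that ran the other way, where 24.4%, 24.1% and 23.8% of all probes were lower in hypothalamus in Per3 5/5, Per3 4/4 and WT. Its log2 level was lower in hypothalamus than in cortex by -0.43 ± 0.14 in Per3 5/5 (limma, adjusted p = 0.00845) and by -0.37 ± 0.15 in WT mice (adjusted p = 0.0277), and the difference of -0.30 ± 0.14 in Per3 4/4 did not pass (adjusted p = 0.0683). Its tissue ranges overlapped in every genotype. With outlier spots kept, the WT difference was -0.04 (limma, adjusted p = 0.90) and the Per3 5/5 one no longer passed (adjusted p = 0.118). The WT call was also lost without WT replicate 2 (-0.35), 3 (-0.23), 4 (-0.33) or 8 (-0.36), at adjusted p of 0.0542 to 0.184. In Per3 4/4 a call was gained without Per3 4/4 replicate 8 (-0.38, limma adjusted p = 0.0309) or WT replicate 3 (-0.30, adjusted p = 0.0466), and with mouse as a fixed or random block (adjusted p = 0.0364 and 0.0234). Over 8 alternatives the limma adjusted p of Mchr1 lay between 0.00133 and 0.118 (Per3 5/5), between 0.0195 and 0.291 (Per3 4/4) or between 0.00772 and 0.90 (WT), with 7, 5 and 7 calls.

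**Figure D4:**
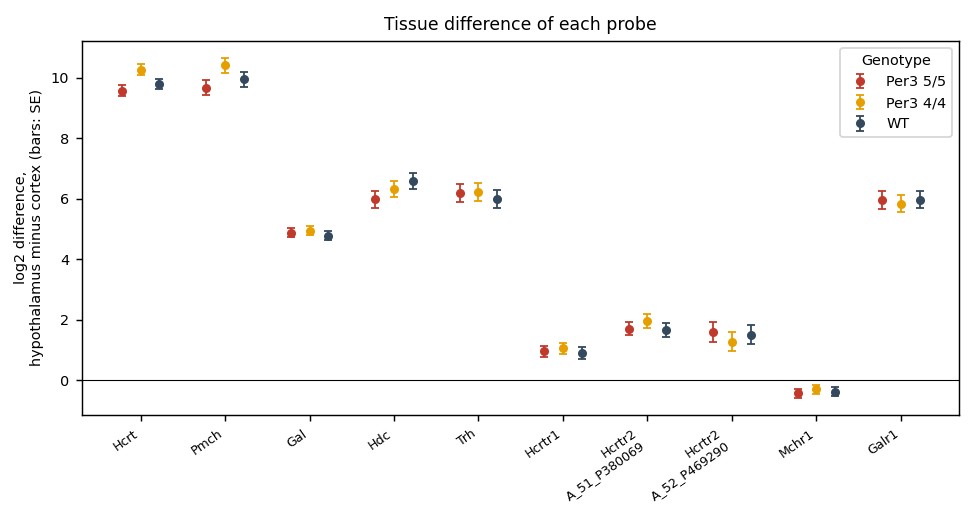
Hypothalamus minus cortex difference in log2 level (± SE, n = 8 per tissue, 7 for Mchr1 in WT hypothalamus) of the 10 member probes in each genotype. The peptide genes and Hdc lie between 4.78 and 10.41, the orexin receptors between 0.90 and 1.97 and Mchr1 below 0, and Galr1 is drawn at its measured cortex level although no cortex array was well above background.

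Whether a genotype difference differed between the tissues was tested on all 48 arrays, and 0 of 10 member probes passed in any of the 3 interactions (percentage of all probes 0, 0.016 and 0.0032). At an unadjusted p under 0.05, 2 of 10 passed between the KI genotypes (1.65% of all probes) and 0 of 10 in the comparisons of Per3 5/5 (3.19%) and Per3 4/4 (2.37%) with WT. These were Hcrt, with a KI difference that was lower in hypothalamus than in cortex by -0.69 ± 0.25, and Pmch by -0.74 ± 0.36, both at a limma adjusted p of 0.99998. Without Per3 5/5 replicate 7 they were -0.42 and -0.41. The Hcrt difference called in Per3 4/4 hypothalamus and that called in Per3 5/5 cortex were therefore not shown to be particular to either tissue.

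Per3 5/5 replicate 7 stood apart in both of its tissues. Its hypothalamus array was the lowest of the 8 for Hcrt (6.21), Pmch (5.27), Gal (3.49), Hdc (0.81) and Trh (1.39). Its cortex array was the highest of the 8 for Hcrt (-1.47), Pmch (-2.12), Gal (-0.43) and Hdc (-2.35). In the hypothalamus array of that mouse the cortex markers had their highest summed level among the 8, 3.43, where the other arrays ran from 1.89 to 3.22. In its cortex array the hypothalamic markers summed to 1.76, within the Per3 5/5 range of 1.03 to 5.03. The part of the tissue dissected in the values of replicate 7 was not tested. Without it the tissue difference of Hcrt in Per3 5/5 was 9.86.

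Among the 24 hypothalamus arrays, several of the 5 peptide and enzyme genes were correlated once the genotypes were pooled. Deviations from the genotype mean were correlated for the 10 pairs of Hcrt, Pmch, Gal, Hdc and Trh, and all 10 values of Pearson's r were above 0, from 0.15 to 0.65. Within genotypes not all were, since in Per3 4/4 Pmch and Gal had r = -0.57, Pmch and Trh -0.23 and Hcrt and Gal -0.14, and in WT Hdc and Trh had -0.18. Without Per3 5/5 replicate 7 the pooled r of Hdc and Trh was -0.0094. After adjustment over the 10 pairs, 5 passed by r (100000 permutations of mice within genotype, two-sided) and 3 by Spearman's rho. The share of other gene pairs that would pass was not computed, so these counts have no background. The median r of a gene with all 15923 other genes lay between 0.0030 (Pmch) and 0.077 (Gal). Points of a pair share their array, and with it the dissection, so a shared source of spread across the genes was not separated from pairwise relations.

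Hcrt and Pmch, made by intermingled neurons of the lateral hypothalamus, had r = 0.65 (permutation p = 0.00103, adjusted p = 0.0055) and rho = 0.69 (permutation p = 0.0004, adjusted p = 0.004). Leaving out the 2 arrays farthest from the median of Hcrt gave r = 0.62. The r of this pair was positive in each genotype, at 0.91, 0.58 and 0.57 in Per3 5/5, Per3 4/4 and WT. It was also positive on each scan day, at 0.70, 0.77 and 0.62. No test was made within a genotype or within a scan day, so a relation in each of them was not shown. Without Per3 5/5 replicate 7, Hcrt and Pmch were the only pair that passed, at r = 0.61 (permutation test, adjusted p = 0.0491). Its adjusted p ran from 0.0014 to 0.0491 over the 5 alternatives.

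Gal and Hdc had the same size of correlation, r = 0.65 (permutation p = 0.0011, adjusted p = 0.0055) and rho = 0.58 (adjusted p = 0.0273), but a different make-up. It was 0.94 in Per3 5/5 against 0.10 in Per3 4/4 and 0.34 in WT, it was 0.51 without the 2 arrays farthest from the median of Gal, and without Per3 5/5 replicate 7 it was 0.55 (adjusted p = 0.0661). The adjusted p of that pair ran from 0.0084 to 0.0661 over the 5 alternatives. The other pairs that passed all included Trh. Pmch and Trh had r = 0.55, Hcrt and Trh r = 0.52 and Gal and Trh r = 0.52, each at an adjusted p of 0.0423 by permutation. Pmch and Trh had r of -0.31 on scan day 1 against 0.83 and 0.84 on days 2 and 3, and Hcrt and Trh had -0.06, 0.57 and 0.81. Without replicate 7 the 3 Trh pairs had r of 0.49, 0.43 and 0.41, and none passed.

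**Figure D5:**
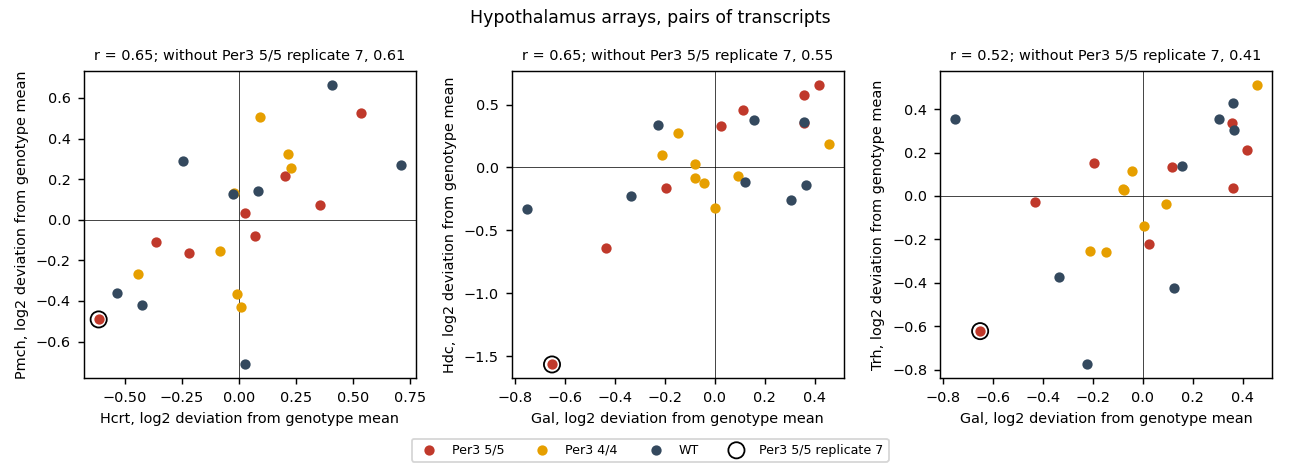
Deviations of log2 level from the genotype mean on the 24 hypothalamus arrays for Hcrt against Pmch, Gal against Hdc and Gal against Trh, with 1 point per array coloured by genotype. Pearson's r is 0.65, 0.65 and 0.52 with all arrays and 0.61, 0.55 and 0.41 without the circled Per3 5/5 replicate 7, which lies at the low end of each gene.

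The genes whose hypothalamic pattern was most like that of a member were found by Pearson's r of the same deviations over 24 arrays, among 15923 genes. For Hcrt these were Mup6 (r = 0.72), Rwdd2b (0.69) and H2al1n (0.67). For Pmch they were Fam118b (0.79), Med10 (0.78) and Cebpzos (0.77), and for Trh they were Ghr (0.76), Igfbpl1 (0.75) and Qtrt1 (0.71). Gal and Hdc had closer companions, with Pafah1b3 (0.90), Gstm6 (0.90) and Eef1akmt1 (0.89) for Gal and Wif1 (0.93), Prph (0.92) and Arhgap36 (0.89) for Hdc. Without Per3 5/5 replicate 7 the 3 values for Hdc were 0.86, 0.89 and 0.80. The highest of many values is high by selection, so these are descriptions and were not tested.

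Other genes of the same systems were read from 4 lists, namely further receptors and inactivating enzymes, genes co-expressed with the peptides, other sleep-wake peptides and receptors, and prohormone-processing and granule genes. In hypothalamus 9 of the 38 tested (23.7%, beside 18.8% of all probes) passed in Per3 5/5 against WT, with 3 higher and 6 lower, and the median difference of the 38 was -0.08. The other sleep-wake list held 4 of the 9, among them Qrfpr, the receptor of the neuropeptide 26RFa, at -0.66, Nmu (neuromedin U) at -0.58 and the prokineticin receptor Prokr2 at -0.56. Ntsr1, a neurotensin receptor, was higher by 0.42. With scan day as a block Qrfpr was the 1 gene of the 9 that still passed, at -0.80 (limma, adjusted p = 0.028).

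The next genes act in histamine signalling or hormone processing, apart from Peg3, a gene co-expressed in these neurons. Hnmt, which inactivates histamine, was lower in Per3 5/5 than in WT by -0.36 in hypothalamus and by -0.38 in cortex. Chgb, a granin of dense-core vesicles, and Scg5, the chaperone of prohormone convertase PC2, were lower in hypothalamus by -0.52 and -0.45. Pcsk1n, an inhibitor of prohormone convertase PC1/3, was higher than in WT by 0.47 and 0.55 in Per3 5/5 and Per3 4/4 hypothalamus and by 0.44 and 0.43 in cortex. Peg3, which is imprinted, was higher in Per3 5/5 by 0.55 in hypothalamus and 0.35 in cortex. Pcsk1n did not pass with scan day as a block in any of the 4 comparisons, where its limma adjusted p was 0.456, 0.20, 0.112 and 0.094.

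Per3 4/4 had fewer calls among these genes in hypothalamus, 2 of 38 (5.26%, beside 15.1% of all probes), namely Pcsk1n and the histamine receptor Hrh1 at -0.39. With the scan day block neither passed. In cortex 5 of 35 passed in Per3 5/5 (14.3%, beside 12.4%) and 3 of 35 in Per3 4/4 (8.57%, beside 22.5%). Slc18a2, the vesicular monoamine transporter of histamine and other monoamine neurons, was lower in both, by -0.45 and -0.48. Pgpep1, which cleaves thyrotropin-releasing hormone, was higher in Per3 4/4 cortex by 0.50, and the histamine receptor gene Hrh3 was higher in Per3 5/5 cortex by 0.30. With scan day as a block 2 of these passed in Per3 4/4 cortex, Slc18a2 (-0.39, limma adjusted p = 0.0192) and Pgpep1 (0.42, adjusted p = 0.0243), and none in Per3 5/5 cortex. Between the KI genotypes 0 of the 38 and 0 of the 35 passed.

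By tissue, 25.6%, 27.1% and 28.1% of all probes were higher in hypothalamus in Per3 5/5, Per3 4/4 and WT. The percentages lower were 24.4%, 24.1% and 23.8%. The genes co-expressed in orexin, melanin-concentrating hormone or histamine neurons were chosen for neurons of the hypothalamus, so their direction supports nothing. In each genotype 6 of 7 were higher in hypothalamus and 1, Nptx2, was lower, by -1.32, -1.24 and -1.31 in Per3 5/5, Per3 4/4 and WT. The further receptors and inactivating enzymes did not lean to either tissue, with 3, 3 and 4 of 9 higher and 3, 3 and 2 lower. Of the other sleep-wake genes 9, 10 and 9 of 13 were higher in hypothalamus and 1, 1 and 2 lower, and of the processing genes 5, 6 and 6 of 9 were higher and 3, 3 and 2 lower.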

How the data were processed

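RNA of 24 mice was labelled with Cy3 and hybridised to 48 1-colour Agilent whole mouse genome arrays with 43379 non-control spots for 41174 probes. The authors deposited the output of Agilent Feature Extraction 10.7.1.1 for each array, in which the processed signal is a linear intensity after subtraction of background and a spatial trend, not scaled between arrays. They also deposited a table of log2 values shifted to the 75th percentile in GeneSpring and, by comparison with the scanner output, centred per probe within a tissue (r from 0.99987 to 0.99998). It was blank for 10534 probes in cortex and served as an alternative.

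Each processed signal was divided by the 75th percentile of its array and taken to log2. Between 48 and 172 outlier spots of an array were left out, and repeat spots were averaged. The filter asked that 1 group or more hold 6 or more of 8 arrays well above background, which gave 30735 probes in hypothalamus, 29715 in cortex and 31228 for both. A gene with several probes was represented in lists by its tested probe with the highest mean signal. RefSeq accessions named 27668 probes.

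Genotypes were compared within a tissue (24 arrays, 3 group means) and tissues and interactions over 48 arrays (6 group means) with limma 3.58.1 in R 4.3.3, two-sided, with Benjamini-Hochberg adjustment over all probes tested and a call at an adjusted p under 0.05. Intervals are 95% intervals of the moderated fit. Covariation was tested by permutation in Python 3.11.15. Both tissues came from the same mouse, and their deviations correlated in all 24 mice (r from 0.109 to 0.688), so mouse was tried as a block. Alternatives covered background correction, scaling, filters, scan day, slide, blocks, the authors' table, the methods' t-test and left-out arrays. Tested on simulated data for Per3 4/4 against WT, the fit recovered 38% of changes of 0.5 and 78% of changes of 1 (log2) among 30622 hypothalamus probes, and 44% and 83% among 29516 cortex probes. Only 100 probes were changed by each amount, and the noise was independent, with no scan day or slide. In the measured arrays 15.1% and 22.5% of probes were called, so these rates are not the power of the fit there. The number of arrays limits the precision.

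The labels number the mice but do not say which were littermates. In the study each genotype came from its own homozygous pairs, and mice were housed singly during the experiments. A difference between genotypes therefore cannot be told apart from one between breeding lines or litters. The p-values measure the spread between these mice. The named genes were all members, the called genes of the 4 lists and, for each of the 5 peptide and enzyme genes, the 3 most like it. Sim1, Tbr1 and Cux2 were named after their values were seen. Members and lists were chosen with earlier results of these data known. Hrh2, Pdyn, Nps, Nms and Vgf had no probe by name. A promoter match of 1 member is not reported here.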

Additional observations from a re-analysis of the deposited data

Results flagged for a closer look

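In 8 of 60 sets of 8 arrays (1 member probe in 1 genotype and tissue), a single array lay so far from the next that Dixon's test at the 95% level marked it. Chance marks about 1 in 20 such sets.

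Among the peptide and enzyme genes, Hcrt was highest in cortex of Per3 5/5 replicate 7, at -1.47 against -2.56 in the next array, and lowest in hypothalamus of Per3 4/4 replicate 5, at 6.66 against 7.02. Gal was highest in hypothalamus of Per3 4/4 replicate 1, at 4.72 against 4.36. Hdc was lowest in cortex of Per3 4/4 replicate 6, at -4.91 against -3.62.

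Among the receptors, Hcrtr1 was lowest in cortex of Per3 4/4 replicate 5, at -3.55 against -2.74. The Hcrtr2 probe A_52_P469290 was highest in cortex of Per3 4/4 replicate 2, at -4.01 against -6.12. Mchr1 was highest in hypothalamus of Per3 5/5 replicate 5, at -0.89 against -1.41, and Galr1 was lowest in hypothalamus of WT replicate 3, at -3.51 against -2.62. The cause of these values was not tested.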

How the results depend on the processing

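Of the genotype comparisons, those called against WT depended on the settings, and the cause was not tested. In Per3 4/4 against WT hypothalamus the 2 member calls became 1 with median centring, no filter on dim probes, normexp, quantile normalization or slide as a random block, and 0 with scan day 2 alone, scan day as a block or slide as a fixed block, and leaving out 1 array gave 1 to 3. In Per3 5/5 against WT hypothalamus leaving out 1 array gave 0 to 1. In Per3 5/5 against WT cortex the 1 call became 0 with the methods' t-test, the 16 arrays of the pair, quantile normalization, scan day 3 alone, scan day as a block or slide as a fixed or random block, and 2 with normexp, and leaving out 1 array gave 0 to 1. In Per3 4/4 against WT cortex the 1 call became 0 with the authors' table, scan day 2 alone, scan day as a block, slide as a fixed or random block or a filter asking all arrays of a group, and 4 with normexp (the authors' table and that filter tested 7 probes, without this one), and leaving out 1 array gave 0 to 2. The A_51_P380069 difference of Hcrtr2 in cortex turned with normexp to 0.35 (adjusted p = 0.0457) in Per3 5/5 and 0.59 (adjusted p = 0.000664) in Per3 4/4 against WT, and the tissue difference of A_52_P469290 in Per3 4/4 turned to -0.034.

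Over all probes, normexp gave 1922 and 1872 calls in hypothalamus and 9319 and 16259 in cortex (Per3 5/5 and Per3 4/4 against WT), in place of 5788, 4628, 3670 and 6696. Scan day as a block gave 644, 229, 293 and 2294, scan day alone 1, 5, 1 and 164, slide as a fixed block 0 in each, and slide as a random block 3221, 2962, 2559 and 5403. Leaving out 1 array gave 4169 to 6423, 2111 to 6728, 1804 to 5710 and 5079 to 7620.

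Replicate numbers were not taken to pair mice of different genotypes (r from -0.38 to 0.50, over 0.1 in 21 of 48 pairs, with 10 of the 48 on the same slide). With the replicate number as a replicate block the member calls stayed at 0, 0 and 2 in hypothalamus and 0, 1 and 1 in cortex (Per3 5/5 against Per3 4/4, Per3 5/5 against WT, Per3 4/4 against WT). With mouse as a replicate block the tissue calls were 10, 10 and 10, and the interactions had 0.

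For covariation, Gal and Trh had r = 0.47 with scan day removed, 0.50 with quantile normalization and 0.41 without Per3 5/5 replicate 7. Hcrt and Trh had 0.49, 0.54 and 0.43 in the same order and 0.51 with normexp, and Pmch and Trh had 0.54 with normexp, 0.53 with quantile normalization and 0.49 without replicate 7, none of which passed, nor did Gal and Hdc at 0.55 without replicate 7. Median centring made 3 pairs pass, Hcrt and Gal (0.50), Hcrt and Hdc (0.52) and Pmch and Hdc (0.41). No second tested probe existed for these 5 genes, so that alternative was not run.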
